A study of Haplochromis burtoni and Lepidiolamprologus elongatus and Tropheus moorii with 25 samples.

Results

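The genes gata3 and il17rb were followed across the intestine of 25 African cichlid species. They were taken by their symbols, as 2 of the 42622 features counted in every library, and read in all barcodes and in barcodes with lck, csf1r or mogat2. For each library the share of barcodes with at least 1 UMI of a gene was taken, where a UMI is the barcode sequence by which copies of 1 transcript molecule are counted once, and then the share holding both genes.

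In mammals, gata3 encodes the zinc finger transcription factor that type 2 helper T cells and group 2 innate lymphoid cells need, and il17rb encodes the receptor subunit that binds interleukin 25. Tuft cells of the mammalian gut release interleukin 25 when they sense parasites, and type 2 lymphocytes that carry the receptor answer with cytokines that raise mucus and recruit eosinophils. The marker lck encodes a kinase next to the T cell receptor, csf1r the growth factor receptor of macrophages, and mogat2 an acyltransferase with which enterocytes rebuild absorbed fat. None of these roles was measured here.

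The data were single-cell transcript counts from dissociated intestine, with 1 library for each species. The labels give the species and the tissue. Age, sex, diet and treatment are not given in the sources used here. The 25 libraries came from Haplochromis burtoni, Lepidiolamprologus elongatus, Tropheus moorii, Callochromis pleurospilus, Cyprichromis coloratus, Julidochromis ornatus, Lepidiolamprologus attenuatus, Neolamprologus brevis, Perissodus microlepis, Petrochromis orthognathus, Telmatochromis vittatus, Boulengerochromis microlepis, Eretmodus cyanostictus, Triglachromis otostigma, Xenotilapia spiloptera, Limnotilapia dardennii, Oreochromis niloticus, Trematocara zebra, Haplotaxodon microlepis, Cyphotilapia frontosa, Benthochromis horii, Bathybates ferox, Shuja horei, Simochromis diagramma and Neolamprologus brichardi.

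After filtering, 98143 of 115682 deposited barcodes were kept, from 1063 to 6544 in a library, with library medians of 1438 to 5904 UMIs per barcode. Total UMIs per library ran from 7016583 to 32569739. A pair of libraries shared at most 17 barcodes over 300 pairs. Haplotaxodon microlepis stood apart, with 314 of the 851 barcodes that held 2 or 3 of the markers at once. With 1 library per species, no 2 species were tested against each other, and every interval on a single library is an exact 95% interval (Poisson for UMIs, Clopper-Pearson for shares) that covers counting error only. Every species was counted against the same feature list, and divergence of a species from that reference can lower its counts, which was not tested.

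Across all kept barcodes, gata3 was found in 2706 barcodes (2.76%), with 7106 UMIs, and no library lacked it. The share of barcodes with gata3 ran from 0.292% in Cyprichromis coloratus over a median of 1.61% to 13.0% in Benthochromis horii. Of the positive barcodes, 572 came from Benthochromis horii, 525 from Shuja horei and 230 from Lepidiolamprologus elongatus. On the scale of counts per 1000000 UMIs (CPM), gata3 reached 94.7 in Benthochromis horii, 56.7 in Shuja horei, 38.3 in Lepidiolamprologus elongatus and 31.4 in Lepidiolamprologus attenuatus. Those 4 species stood in that order of CPM with intervals that did not overlap. A second run of 8 species followed, with 24.9 CPM in Neolamprologus brichardi, 24.8 in Petrochromis orthognathus, 21.1 in Telmatochromis vittatus, 19.3 in Eretmodus cyanostictus, 16.0 in Callochromis pleurospilus, 15.6 in Julidochromis ornatus, 14.4 in Neolamprologus brevis and 14.2 in Tropheus moorii. The level then stepped down to 8.06 in Simochromis diagramma, 7.91 in Triglachromis otostigma, 7.88 in Haplochromis burtoni, 6.66 in Cyphotilapia frontosa, 6.34 in Limnotilapia dardennii, 5.68 in Boulengerochromis microlepis and 5.49 in Oreochromis niloticus. Bathybates ferox had 5.12, Haplotaxodon microlepis 5.00, Xenotilapia spiloptera 4.66 and Perissodus microlepis 4.17. Trematocara zebra (1.20) and Cyprichromis coloratus (0.599) were lowest. In this order of CPM, 6 of 24 neighbouring pairs had intervals apart: the first 4 steps, the step below Tropheus moorii and the step above Trematocara zebra. The intervals of the other neighbours overlapped. In the order of shares of barcodes, 3 of 24 pairs had intervals apart. These were Benthochromis horii over Shuja horei, Shuja horei over Lepidiolamprologus elongatus, and Boulengerochromis microlepis over Cyprichromis coloratus. There Neolamprologus brichardi stood above Lepidiolamprologus attenuatus. The CPM intervals take each UMI as separate, though 1 barcode can hold several UMIs of a gene, so they may be too narrow.

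The receptor gene il17rb was found in 2040 barcodes (2.08%), with 5564 UMIs, and followed another order of species. Its share of barcodes ran from 0.184% in Cyphotilapia frontosa over a median of 1.26% to 12.7% in Lepidiolamprologus elongatus. Lepidiolamprologus elongatus alone held 632 of the positive barcodes. The level was 126 CPM there and 60.0 CPM in its congener Lepidiolamprologus attenuatus, followed by 24.3 in Callochromis pleurospilus, 23.2 in Petrochromis orthognathus, 16.7 in Cyprichromis coloratus and 15.6 in Eretmodus cyanostictus. In CPM, both Lepidiolamprologus species therefore stood above the other 23, with intervals apart from each other and from the next. In the order of shares of barcodes, 1 of 24 neighbouring pairs had intervals apart, Lepidiolamprologus elongatus over Lepidiolamprologus attenuatus. A middle run held Benthochromis horii (11.9), Bathybates ferox (11.6), Neolamprologus brichardi (11.6), Telmatochromis vittatus (10.2), Neolamprologus brevis (9.93), Julidochromis ornatus (7.46), Haplochromis burtoni (7.18), Shuja horei (6.61) and Tropheus moorii (6.49). Below a step, the level was 3.76 CPM in Xenotilapia spiloptera, 3.55 in Boulengerochromis microlepis, 2.83 in Haplotaxodon microlepis, 2.76 in Oreochromis niloticus, 2.57 in Limnotilapia dardennii, 2.45 in Trematocara zebra, 1.74 in Triglachromis otostigma, 1.61 in Simochromis diagramma, 1.18 in Perissodus microlepis and 0.985 in Cyphotilapia frontosa. Intervals of neighbours in CPM were apart at 5 of 24 steps. The species at the ends of the orders differ: Cyprichromis coloratus was lowest for gata3 (11 UMIs) and the fifth highest for il17rb (307 UMIs), while Shuja horei was the second highest for gata3 (1209 UMIs) and had 141 UMIs of il17rb.

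**Figure D1:**
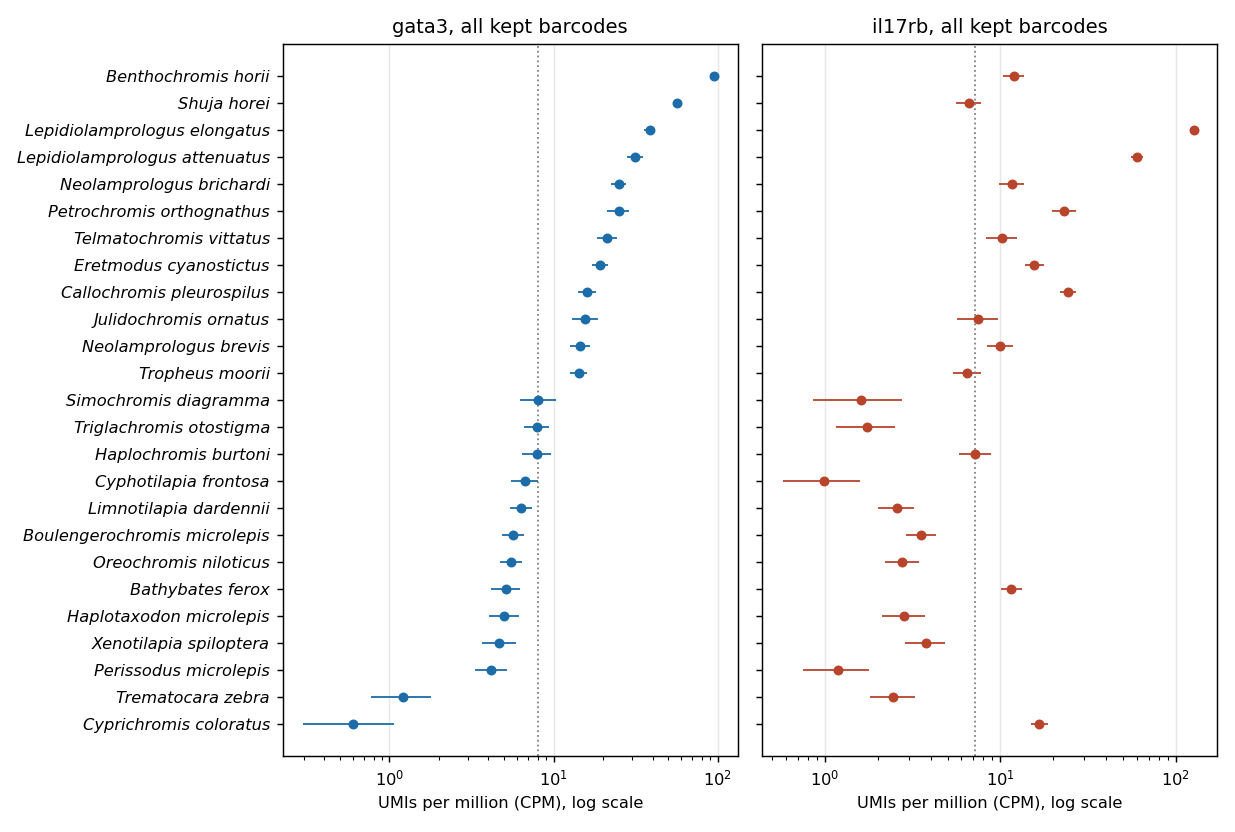
Level of gata3 (left) and il17rb (right) over all kept barcodes of each species, in CPM on a log axis. Points are 1 library each, bars are exact 95% Poisson intervals, the dotted line is the median of the 25 libraries (8.06 CPM for gata3, 7.18 CPM for il17rb), and species are ordered by gata3, from 94.7 CPM in Benthochromis horii to 0.599 CPM in Cyprichromis coloratus.

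Among the marker-positive barcodes, both genes were found mostly with lck. Of 13195 lck-positive barcodes, 5.93% held gata3 and 5.02% held il17rb, and the il17rb share was 3.05% without Lepidiolamprologus elongatus. In 4431 csf1r-positive barcodes the shares were 1.17% and 0.880%, and in 15568 mogat2-positive barcodes they were 1.01% and 0.912%. Median depth ran the other way, since the median over libraries of the median UMI count was 2284.5 with lck, 3830.5 with csf1r and 6525 with mogat2. The mogat2-positive shares, those of an enterocyte marker, are given for comparison.

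Within lck-positive barcodes the share with gata3 was 40.8% in Benthochromis horii (138 of 338 barcodes, interval 35.5% to 46.3%), 11.7% in Shuja horei, 10.1% in Neolamprologus brichardi and 7.85% in Lepidiolamprologus elongatus. The median library had 4.25%, and the lowest was 1.20% in Xenotilapia spiloptera (3 of 250 barcodes). Only Benthochromis horii stood apart from its neighbour in that order. The share with il17rb was 16.6% in Lepidiolamprologus elongatus (318 of 1910), 15.7% in Benthochromis horii (53 of 338), 10.5% in Bathybates ferox (30 of 286) and 5.44% in Lepidiolamprologus attenuatus (67 of 1231). The median was 2.80%, and Cyphotilapia frontosa had 0 of 113 barcodes, where 3 counts of the total would give a share of 2.65% of barcodes with a UMI. Of the neighbours in the il17rb order, Bathybates ferox and Lepidiolamprologus attenuatus alone had intervals apart.

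With csf1r, 11 libraries had no gata3-positive barcode and 10 had no il17rb-positive one. The gata3 share was 4.74% in Shuja horei (11 of 232) and 4.58% in Haplotaxodon microlepis (14 of 306), and Trematocara zebra had 1 of 11 such barcodes. With mogat2, Shuja horei (47 of 730 barcodes, 6.44%) and Benthochromis horii (19 of 312, 6.09%) again had the highest gata3 shares, followed by Haplotaxodon microlepis (46 of 1357, 3.39%), while the median library had 0.398%. The highest il17rb shares with mogat2 were 3.89% in Trematocara zebra, whose mogat2-positive barcodes had a median of 27683 UMIs, and 2.79% in Lepidiolamprologus elongatus. The part of free RNA and of doublets in these shares was not tested.

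To compare shares at 1 depth, each barcode was thinned at random to 1000 UMIs, and barcodes with exactly 1 of the markers were used. Barcodes below 1000 UMIs were left out, which took 1133 of 12634 lck barcodes, 493 of 3990 csf1r barcodes and 849 of 14838 mogat2 barcodes. The thinned share with gata3 averaged 3.65% ± 5.99 in the lck class and 0.167% ± 0.294 in the mogat2 class (SD, n = 25 libraries). It was higher in the lck class in 23 of 25 libraries (difference 3.49 percentage points, SD 5.83, 2-sided sign-flip permutation test over libraries, p adjusted over 6 tests = 2e-05, the smallest these resamples can give). For il17rb the means were 2.08% ± 2.92 in the lck class and 0.134% ± 0.191 in the mogat2 class, with the lck class higher in 22 of 25 libraries (difference 1.94, SD 2.90, adjusted p = 2e-05). Unthinned, the pooled shares in the same classes were 6.02% and 0.863% for gata3, and 5.07% and 0.789% for il17rb, with 3.03% in the lck class without Lepidiolamprologus elongatus.

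Against the csf1r class the same differences were found in the 24 libraries with at least 10 barcodes. The gata3 share averaged 3.78% ± 6.08 in the lck class and 0.385% ± 0.561 in the csf1r class, higher in 21 of 24 libraries (adjusted p = 2e-05). Benthochromis horii carried part of that size, since the difference of 3.39 percentage points became 2.20 without it. The il17rb share averaged 2.14% ± 2.96 in the lck class and 0.274% ± 0.748 in the csf1r class, higher in 19 of 24 libraries (difference 1.86, adjusted p = 0.00012). Callochromis pleurospilus had the highest il17rb share of the csf1r class (3 of 84 barcodes, 3.57%), and without it the csf1r mean was 0.130% ± 0.263 (SD, n = 23). Between the csf1r and mogat2 classes no difference passed the threshold, with 0.385% ± 0.561 and 0.174% ± 0.298 for gata3 (adjusted p = 0.0875) and 0.274% ± 0.748 and 0.139% ± 0.193 for il17rb (adjusted p = 0.426). Without Callochromis pleurospilus that il17rb difference was 0.012 percentage points (adjusted p = 0.849). The gata3 difference between csf1r and mogat2 did pass in some alternatives, such as without Benthochromis horii (0.25 percentage points, adjusted p = 0.0343).

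**Figure D2:**
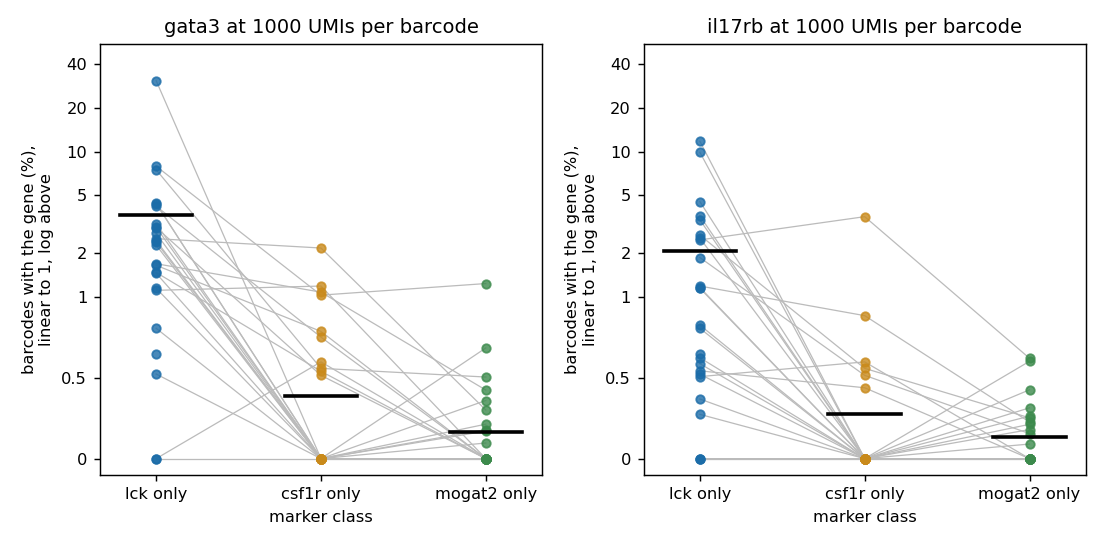
Share of barcodes with gata3 (left) and il17rb (right) after thinning to 1000 UMIs, in barcodes with lck only, csf1r only or mogat2 only. Points are libraries, grey lines join the classes of 1 library, black bars are means over libraries, and the axis is linear to 1% and logarithmic above; the means are 3.65% and 2.08% in the lck class and 0.167% and 0.134% in the mogat2 class.

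Summed UMI counts gave the same order. In edgeR's quasi-likelihood test with library as a block, over 8361 features with Benjamini-Hochberg adjustment, gata3 was 41.2-fold higher in the lck class than in the mogat2 class (log2 5.36, SE 0.39, 95% interval 24.1 to 70.2, adjusted p = 3.9e-18). Its level averaged 56.6 ± 98.9 CPM in the lck class, ranging from 4.82 to 509, and 1.15 ± 2.07 CPM in the mogat2 class, where it ranged from 0 to 9.60. The receptor gene il17rb was 20.7-fold higher (log2 4.37, SE 0.40, 95% interval 12.1 to 35.5, adjusted p = 1.2e-14), with 35.1 ± 52.6 CPM in the lck class and 0.959 ± 1.10 CPM in the mogat2 class (SD, n = 25). These classes differ in most of the transcriptome, and 39.4% of all tested features were called higher in the lck class, so a call alone sets neither gene apart. Called higher and lower were 3292 and 3283 features, and 4274 and 2614 with no TMM scaling, which moved the median of all features by 0.38 on the log2 scale. Relative to that median, gata3 was at 5.32 and 5.36 without TMM, and il17rb at 4.33 and 4.37. Against the csf1r class, where 37.4% of features were called higher with lck, gata3 was 21.0-fold higher (log2 4.39, SE 0.44, adjusted p = 7.5e-13) and il17rb 11.4-fold higher (log2 3.51, SE 0.44, adjusted p = 6.1e-10). The csf1r class averaged 3.17 ± 5.32 CPM of gata3 and 4.52 ± 10.5 CPM of il17rb (SD, n = 24). Its medians were 0.569 CPM of gata3 and 0.493 CPM of il17rb, with 12 of 24 libraries at 0 for each gene. In the mogat2 class the medians were 0.457 and 0.520 CPM, so both genes were near the floor in both classes. Neither gene passed between csf1r and mogat2 (log2 0.97, adjusted p = 0.080 for gata3 and log2 0.87, adjusted p = 0.11 for il17rb), where 34.5% of features were called higher with csf1r. With no TMM scaling both did pass (log2 1.65 and 1.57), while the median of all features moved by 0.71 in that comparison and by -0.33 between lck and csf1r. The split of higher and lower calls was 3131 and 2646 for lck against csf1r (2052 and 3355 with no TMM) and 2881 and 3245 for csf1r against mogat2 (4907 and 1947).

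Of the relatives of gata3, gata5 and gata6 were lower in the lck class than in the mogat2 class. Of 5 gata genes matched, gata3, gata5 and gata6 passed the filter on low counts. In mammals gata4, gata5 and gata6 are the endodermal members that act in gut epithelium and heart. The gene gata5 had a median of 0.992 CPM in the lck class and 44.9 CPM in the mogat2 class (log2 -5.67, SE 0.33, adjusted p = 4.9e-22), and gata6 had 11.2 and 160 CPM (log2 -3.88, SE 0.30, adjusted p = 1.6e-17). Against the csf1r class, where its median was 6.97 CPM, gata6 was higher with lck (log2 1.01, SE 0.33, adjusted p = 0.0064), and gata5 was not called (log2 0.16). In gata4, not tested, the medians were 0 CPM with lck and 12.3 CPM with mogat2, with 13 of 25 libraries at 0 in the lck class. The blood and mast cell member gata2 was at 0 in 24 of 25 libraries with lck, 24 of 24 with csf1r and 23 of 25 with mogat2. Of the 3 tested gata genes, gata3 alone was called higher in the lck class than in the mogat2 class.

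Of the interleukin 17 receptor list, 6 genes of 9 were matched and 3 were tested. The receptor gene il17re, whose product in mammals binds interleukin 17C, was higher in the lck class as well, with a median of 82.7 CPM (18.5 to 327), against 0.799 CPM in the mogat2 class (log2 5.89, SE 0.34, adjusted p = 4.3e-22). The adaptor gene traf3ip2, which couples these receptors to signalling, ran the other way, with a median of 2.57 CPM in the lck class and 45.1 CPM in the mogat2 class (log2 -4.24, SE 0.28, adjusted p = 1.2e-19). The untested members were low: il17rd had a median of 0 CPM with lck, il17rel 2.69 CPM and the adaptor traf6 2.72 CPM.

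Of 32 genes on the type 2 list, 10 were matched by symbol and the other 22, the cytokine genes il4 and il13 and the receptor gene il1rl1 among them, were not analysed here. All 10 were tested, and 7 were called higher with lck than with mogat2: gata3, il17rb, the nuclear receptor gene rora (log2 3.22), the interleukin 7 receptor gene il7r (5.33), the T cell factor gene bcl11b (5.70), ets1 (2.48) and batf (5.51). The genes zbtb16 (-2.87), id2 (-0.78) and socs3 (-0.91) were called lower. Over all 8361 features, 39.4% were called higher and 39.3% lower in this comparison. The list's median log2 change was 3.79, and that of all features was 0.04. Both gata3 and il17rb are counted in the 7 and in the list's median. The list mixes genes shared by all T cells with type 2 genes, so its count is not particular to type 2 cells. As a check of the class, all 6 tested genes of the T cell list were called higher with lck than with mogat2, among them cd3e (log2 6.03) and itk (5.67), and all 6 tested enterocyte features were lower. Of the macrophage list 4 of 5 were also higher with lck than with mogat2, and all 5 were lower with lck than with csf1r. Against csf1r, 5 of the 6 T cell genes were higher with lck and runx3 was lower. Of the 6 enterocyte features 5 were also higher with lck than with csf1r, epcam and fabp2 among them (list median log2 0.62), and 1 was not called. In that comparison 37.4% of all features were called higher and 31.6% lower. The source of the enterocyte transcripts in the lck class was not tested.

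Most positive barcodes carried none of the markers, as did most kept barcodes (65830 of 98143). Of gata3-positive barcodes, 28.9% had lck, 1.92% csf1r, 5.80% mogat2 and 64.7% (1752 barcodes) no marker. Of il17rb-positive barcodes, 32.5% had lck, 1.91% csf1r, 6.96% mogat2 and 60.3% (1230 barcodes) no marker. At these depths a barcode without a UMI of lck is not shown to lack the gene. Among all 65830 marker-free barcodes, 2.66% held gata3 and 1.87% held il17rb, against 2.76% and 2.08% of all kept barcodes.

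A barcode with 1 UMI of a gene was the commonest kind, at 54.7% of gata3-positive and 56.4% of il17rb-positive barcodes. At the upper end, 402 barcodes in 22 libraries held at least 5 gata3 UMIs, and 296 in 24 libraries held at least 5 il17rb UMIs, with a highest value of 36 for gata3 and 43 for il17rb. Of the 402 barcodes rich in gata3, 25.4% had lck, 1.24% mogat2 and 32.3% the T cell gene cd3e. Of the 296 rich in il17rb, 45.9% had lck, 2.03% mogat2 and 32.1% cd3e. Lepidiolamprologus elongatus gave 152 of these 296, and without it 28.5% of 144 had lck and 16.0% cd3e. The share with mogat2 was thus lower among rich barcodes than among all positive ones for both genes, as a description with no test. For gata3 the mogat2 share rests on 5 barcodes, 2 of them from Boulengerochromis microlepis, and was 0.771% without that library. The other markers were also rarer among barcodes rich in gata3, lck with 25.4% against 28.9% and csf1r with 0.746% against 1.92%. With il17rb the csf1r share was 2.03% among rich and 1.91% among all positive barcodes.

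Both genes were found together more often than their separate shares give. Within libraries, the product of the shares gives 74.1 barcodes with both genes over the series, and 419 were found, 5.66 times as many. The observed number was above the product in 24 of 25 libraries, and Cyphotilapia frontosa had 0 of them. The 419 barcodes were 15.5% of the gata3-positive and 20.5% of the il17rb-positive ones. The largest numbers came from Lepidiolamprologus elongatus (100), Benthochromis horii (89) and Shuja horei (39). In lck-positive barcodes 184 were found against 61.2 by the product (3.01 times, above it in 18 of 25 libraries), and among marker-free barcodes 225 against 35.0 (6.43 times). The product takes the barcodes of a library as alike, while both shares were higher with lck than with csf1r or mogat2. A mixture of cell types can raise each of these ratios, that of lck-positive barcodes included, and its part was not tested. The csf1r-positive barcodes held 3 barcodes with both genes and the mogat2-positive ones 10. Of barcodes rich in gata3 with at least 5 UMIs, 35.8% also held il17rb, against 7.22% of those with 1 gata3 UMI, and of barcodes rich in il17rb 52.7% held gata3, against 12.1% of those with 1 il17rb UMI. Benthochromis horii gave 59 of the 139 barcodes with gata3 and 1 il17rb UMI, and without it that share was 7.50%.

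Deeper barcodes are more often positive for any gene, so the overlap was tested after thinning to 1000 UMIs. In the lck class, 10 libraries had at least 10 gata3-positive barcodes. The share with il17rb in them was 55.8% of 77 gata3-positive barcodes in Lepidiolamprologus elongatus, 19.5% of 87 in Benthochromis horii, 19.2% of 26 in Lepidiolamprologus attenuatus and 17.6% of 51 in Shuja horei. It was 14.3% of 14 in Julidochromis ornatus, 10.0% of 10 in Limnotilapia dardennii, 9.68% of 31 in Telmatochromis vittatus, 9.09% of 11 in Oreochromis niloticus, 8.70% of 23 in Neolamprologus brevis and 6.45% of 31 in Neolamprologus brichardi. In gata3-negative lck barcodes of the same libraries the share ran from 0% in Limnotilapia dardennii to 9.74% in Lepidiolamprologus elongatus. The gata3-positive share was the higher in each of the 10 libraries, though the groups overlap across libraries.

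The means were 17.0% ± 14.4 in gata3-positive and 2.32% ± 3.14 in gata3-negative lck barcodes, a difference of 14.7 percentage points (SD 11.7, n = 10 libraries, 2-sided sign-flip permutation test, p = 0.00192). Without Lepidiolamprologus elongatus the difference was 11.2, and without it, Benthochromis horii and Shuja horei it was 10.0 (7 libraries, exact sign-flip p = 0.0156). Every difference was positive, so the p-values with 10 and with 7 libraries are about the smallest that such numbers of libraries allow. Among marker-free barcodes, a comparison added after seeing the data, the share was 18.4% ± 16.0 in gata3-positive and 0.927% ± 1.60 in gata3-negative barcodes, higher in 19 of 22 libraries (sign-flip permutation test, p = 1e-05, the smallest these resamples can give). The 3 exceptions were Tropheus moorii (0 of 38 gata3-positive barcodes), Cyphotilapia frontosa (0 of 38) and Bathybates ferox (0 of 13). Thinning removes differences in depth and not a mixture of cell types, in the lck class or among marker-free barcodes. The part of such a mixture in these differences was not tested. No library had 10 gata3-positive barcodes after thinning in the csf1r or mogat2 class, so no test was made there.

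**Figure D3:**
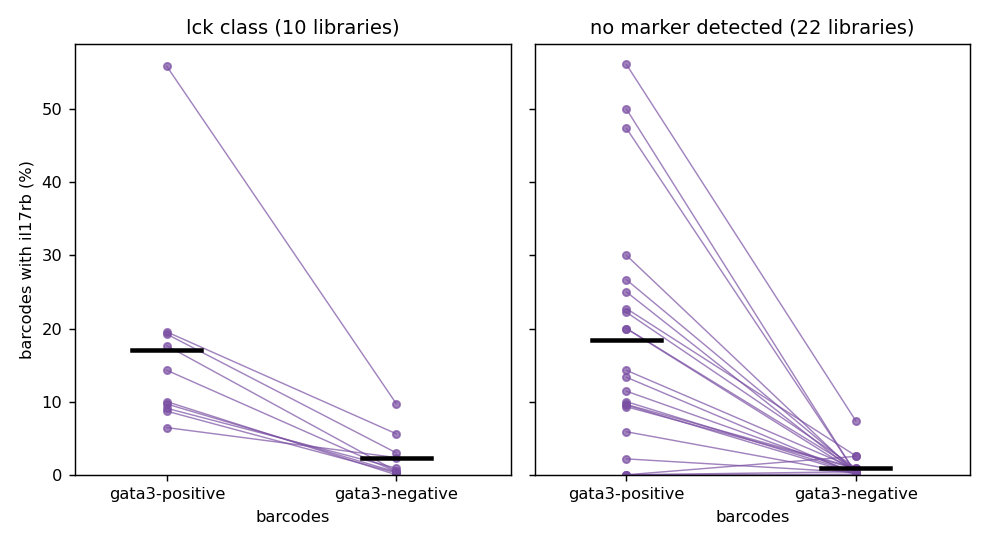
Share of barcodes with il17rb in gata3-positive and gata3-negative barcodes, each thinned to 1000 UMIs, in the lck class (10 libraries) and in barcodes with no marker detected (22 libraries). Lines join the values of 1 library and black bars are means over libraries, 17.0% and 2.32% in the lck class and 18.4% and 0.927% without a marker.

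Genes that go with gata3 were read by summing UMIs of gata3-positive and of gata3-negative lck barcodes within each of 15 libraries (705 and 10181 barcodes). Of 3330 features tested in edgeR's quasi-likelihood test, 46 (1.38%) were higher and 113 (3.39%) lower in gata3-positive barcodes at an adjusted p under 0.05. With no TMM scaling the split was 53 and 82, and with DESeq2 it was 61 and 87. The median depth of positive barcodes was 2742 UMIs and that of negative ones 2178.5 UMIs, as medians over libraries, and its part in these calls was not tested. The smallest p of the features with a symbol belonged to il17rb, behind 6 features with LOC identifiers, with a median of 208 CPM (0 to 1082) in gata3-positive and 9.13 CPM (1.40 to 157) in gata3-negative barcodes. It was higher in 14 of 15 libraries (log2 3.99, SE 0.35, 15.9-fold, 95% interval 9.82 to 25.6, adjusted p = 5.4e-09), and the adjusted p ran from 1.9e-56 to 6.4e-05 over 23 alternatives.

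Other genes with a symbol were called higher with gata3 too. The oxysterol receptor gene gpr183, which in mammals guides lymphocyte migration, had a median of 75.0 CPM in gata3-positive and 11.3 CPM in gata3-negative barcodes (log2 2.43, SE 0.28, adjusted p = 6.8e-07, higher in 13 of 15 libraries). The leukotriene receptor gene cysltr1 had 82.7 and 33.4 CPM (log2 1.47, SE 0.24, adjusted p = 0.00020). The gene sytl3, for a synaptotagmin-like protein of vesicle transport, was higher in 15 of 15 libraries (169 and 67.9 CPM, log2 1.31, adjusted p = 4.8e-05), as was the sialyltransferase gene st6gal2 (106 and 38.4 CPM, log2 1.19, adjusted p = 0.00035). The cytohesin-binding gene cytip (log2 1.18), the kinase gene ikbke (1.29), the Rab regulator gene rabgap1l (0.93) and lg7h15orf39 (1.09) were also higher, each with an adjusted p of 0.0023 or less.

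Of the features with a symbol, those lower in gata3-positive barcodes were led by btla, an inhibitory receptor of lymphocytes. Its median was 7.50 CPM in gata3-positive and 131 CPM in gata3-negative barcodes (log2 -2.50, SE 0.30, adjusted p = 2e-06, lower in 14 of 15 libraries). The phosphatase gene dusp4 (85.0 and 213 CPM, log2 -1.17, adjusted p = 0.00040) and the RNA-binding phosphoprotein gene arpp21 (124 and 247 CPM, log2 -0.95, adjusted p = 0.00056) were lower in 15 of 15 libraries. The repressor gene bhlhe40 was lower as well (log2 -0.74, adjusted p = 0.0017). The epithelial adhesion gene epcam, a marker of another cell type, had a median of 27.5 CPM in gata3-positive and 167 CPM in gata3-negative barcodes (log2 -1.59, adjusted p = 0.0017). Of the 4 enterocyte features tested 2, apoa4b and epcam, were lower, and their part in the other calls was not tested. The calls of bhlhe40, arpp21 and epcam were lost when 2 UMIs of lck were required.

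Of the other type 2 genes, 7 were tested beside il17rb, and none was called higher with gata3. The genes il7r (log2 -0.72, adjusted p = 0.0091) and socs3 (-0.78, adjusted p = 0.017), which encode a cytokine receptor and a brake on cytokine signalling, were lower. The values were -0.39 for rora, -0.19 for bcl11b, -0.20 for batf, 0.18 for ets1 and 0.62 for id2, with adjusted p between 0.31 and 0.80. The list's median was -0.19, and that of all features -0.04. Of the T cell list 1 of 6 tested genes was higher, the adaptor gene sh2d1a (log2 0.87, adjusted p = 0.024), while cd3e had a log2 change of -0.05. Of the naive T cell list btla and the quiescence factor gene klf2 were lower, 2 of 3 tested. None of the 3 regulatory T cell genes (foxp3, il10, ikzf2) passed, and neither did the 1 tested type 1 gene.

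**Figure D4:**
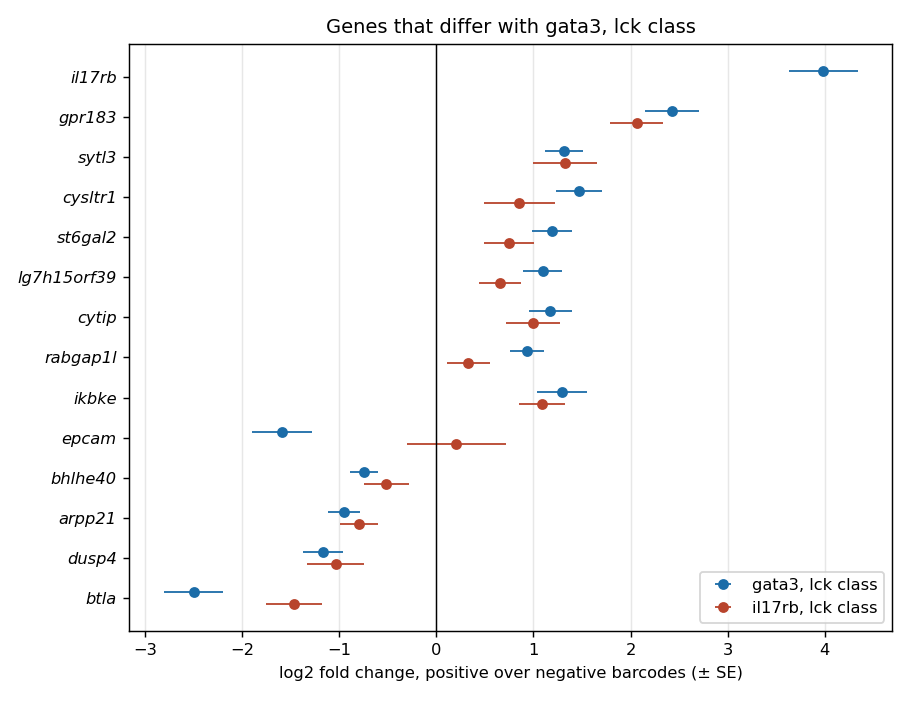
Log2 fold change of positive over negative barcodes of the lck class for il17rb and other genes named with gata3, ± SE from edgeR. Blue points compare gata3-positive with gata3-negative barcodes in 15 libraries and red points il17rb-positive with il17rb-negative barcodes in 11; il17rb is at 3.99, gpr183 at 2.43 (blue) and 2.06 (red), and btla at -2.50 (blue) and -1.47 (red).

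The converse comparison used il17rb-positive and il17rb-negative lck barcodes of 11 libraries (593 and 8383 barcodes, median depth 2510 and 2205 UMIs). It shares libraries and barcodes with the gata3 comparison, so the comparisons are not independent. Of 4202 features tested, 14 (0.333%) were higher and 16 (0.381%) lower. With DESeq2 the split was 26 and 18. The smallest p among the higher ones belonged to gata3, with a median of 288 CPM (0 to 1051) in il17rb-positive and 25.0 CPM (11.3 to 390) in il17rb-negative barcodes (log2 2.93, SE 0.33, 7.64-fold, 95% interval 4.85 to 12.0, adjusted p = 2.7e-06, higher in 10 of 11 libraries). Over 19 alternatives its adjusted p ran from 7.9e-12 to 0.0017. The gene gpr183 was higher in 11 of 11 libraries (66.9 and 12.4 CPM, log2 2.06, SE 0.27, adjusted p = 2.4e-05).

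The other calls with il17rb were weaker. The G protein gene gnaz (log2 1.11), ikbke (1.09), the adenylate kinase gene ak5 (0.95) and ifngr1l, named as an interferon gamma receptor gene (1.44), were higher with adjusted p from 0.013 to 0.038. Each of these 4 calls was lost when Shuja horei was left out. That of gnaz was lost only then, that of ak5 without any 1 of 4 of the 11 libraries. The calls of ikbke and ifngr1l were each lost without any 1 of 6. With 1 library left out, the adjusted p of these genes reached up to 0.16. Lower were btla (21.2 CPM in il17rb-positive and 130 CPM in il17rb-negative barcodes, log2 -1.47, adjusted p = 0.0072), the chromatin organiser gene satb1 (65.4 and 181 CPM, log2 -1.30, adjusted p = 0.0087) and the lysophosphatidic acid receptor gene lpar4 (log2 -0.96, adjusted p = 0.022), the last of which was lost without any 1 of 4 libraries, among them Callochromis pleurospilus. The calls of btla (adjusted p = 0.054) and satb1 (0.072) were lost without Lepidiolamprologus elongatus, Benthochromis horii and Shuja horei together. Of the type 2 list gata3 alone was called, of 8 tested. The receptor gene il17re showed no call with il17rb (log2 0.07, SE 0.30) or with gata3 (log2 0.50, SE 0.22, adjusted p = 0.27) within the lck class.

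Barcodes with no marker were compared in the same way after their number had been seen. In 23 libraries, 1738 gata3-positive and 61342 gata3-negative barcodes were summed, with median depths of 1915 and 1784 UMIs. Of 10353 features, 506 (4.89%) were higher and 3124 (30.2%) lower, and 1140 and 2204 with no TMM scaling, which moved the median of all features by 0.23 on the log2 scale. The marker-free barcodes mix many cell types, so this comparison sets gata3-positive barcodes against an average of them. The gene il17rb was higher in 22 of 23 libraries, with a median of 223 CPM in gata3-positive and 3.63 CPM in gata3-negative barcodes (log2 5.29, SE 0.36, adjusted p = 2.4e-14). The genes sytl3 (386 and 28.5 CPM, log2 3.55), gpr183 (81.8 and 8.44 CPM, log2 2.78) and cysltr1 (88.4 and 16.3 CPM, log2 2.45) were higher too, and so were ikbke (2.11), cytip (2.09), metrnl (2.44), rab27b (2.57) and n4bp1 (1.43).

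Genes of the T cell list were mostly higher with gata3 in these marker-free barcodes. Of 6 tested genes of the T cell list 5 were higher with gata3, cd3e (log2 0.89, adjusted p = 0.0019), cd247 (1.32), itk (1.23), tcf7 (0.69) and sh2d1a (1.34). Of 3 tested genes of the naive T cell list klf2 (-1.53) and btla (-1.33) were lower and none was higher, and of 2 type 1 genes tbx21 was lower (-1.05) and stat4 higher. All 6 enterocyte features, 4 of 4 tested macrophage genes and 3 of 5 B cell genes were lower, and none of these was higher. Of the 8 type 2 genes other than il17rb, 5 were higher: batf (log2 0.82), bcl11b (0.82), id2 (0.81), rora (0.58) and ets1 (0.41). The genes zbtb16 (-1.66) and socs3 (-0.84) were lower. Calls were not limited to that list. The 1 tested type 3 gene, il17re, was higher (log2 0.91, adjusted p = 0.0040, higher in 17 of 23 libraries). Of 3 tested regulatory T cell genes ikzf2 was higher and 2 were not called. Of the interleukin 17 receptor list il17rel (-1.13) and traf3ip2 (-2.05) were lower. The epithelial members gata4 (-1.52), gata5 (-2.08) and gata6 (-1.34) were lower. The mitochondrial genes COX2 (-1.29), ND1 (-1.50), COX1 (-1.24), COX3 (-1.21) and ATP6 (-1.53) had the smallest p among the lower features with a symbol.

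With il17rb in place of gata3, 1210 positive and 57146 negative marker-free barcodes of 22 libraries were compared (median depth 3012.75 and 1849.75 UMIs). Of 10432 features, 144 (1.38%) were higher and 1917 (18.4%) lower, 744 and 996 with no TMM scaling, which moved the median of all features by 0.31, and 335 and 1510 with DESeq2. The gene gata3 was higher in 21 of 22 libraries, with a median of 240 CPM in il17rb-positive and 10.2 CPM in il17rb-negative barcodes (log2 3.87, SE 0.32, adjusted p = 6.1e-11). The genes sytl3 (1.88), gpr183 (1.49), ikbke (0.99), actr8 (2.32), edaradd (1.85) and acot7 (1.78) were higher. So were hmmr (1.46) and racgap1 (1.55), which act in cell division, and acsl3 (1.32). Of these, sytl3, gpr183, ikbke, edaradd, acot7 and hmmr were also called higher with gata3 in marker-free barcodes. The part of depth in the calls with il17rb was not tested. None of the 6 tested T cell genes was called with il17rb, and cd3e had a log2 change of -0.56 (adjusted p = 0.25). Of the 3 tested regulatory T cell genes foxp3 was called higher and the other 2 were not called. The naive T cell genes klf2 (-1.59) and btla (-1.53) and the type 1 gene tbx21 (-2.18) were lower. The B cell genes pax5 (-7.08) and cd79a (-4.50) and the kinase gene plk2 (-4.81) were lower in 22 of 22 libraries. The mitochondrial genes COX2 (-1.33, lower in 21 of 22 libraries) and COX3 (-1.27, lower in 22 of 22) were also lower, and the part of RNA quality in these calls was not tested. None of the 4 tested tuft cell genes was called higher.

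Barcodes with both genes were then set against barcodes with gata3 and no il17rb UMI, a comparison added after seeing the data (12 libraries, 354 and 1598 barcodes, lck class and marker-free together). Median depth was 2301 and 1957.25 UMIs, and gata3, which chose the barcodes, was 2.04-fold higher with both genes. Of all barcodes with both genes 43.4% were in the lck class, against 28.1% of all gata3-positive ones. The part of these differences in the calls was not tested. Of 931 features, 48 (5.16%) were higher and 15 (1.61%) lower. The genes ikbke (244 CPM with both genes and 72.3 CPM with gata3 alone, log2 1.72, adjusted p = 0.00095), cytip (447 and 71.3 CPM, log2 1.93, adjusted p = 0.0022), cysltr1 (190 and 58.9 CPM, log2 1.61, adjusted p = 0.0049) and sytl3 (758 and 268 CPM, log2 1.24, adjusted p = 0.0087) were higher. So were n4bp1 (1.13), the lymphocyte adhesion gene cd2 (0.92), the signalling gene vav1 (0.90), the potassium channel gene kcnk1 (1.22), nbeal2 (1.12) and samsn1 (0.91). Lower were epcam (3.34 and 193 CPM, log2 -3.37, adjusted p = 0.0016), crip1 (-1.20), npc2 (-1.31) and ubl3 (-0.74). None of the 6 tested T cell genes, lck among them, passed, and of the type 2 list id2 was higher (0.91, adjusted p = 0.038), a call lost without any 1 of 8 libraries.

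Across the 25 libraries, the levels of both genes were related. In the lck class the level of gata3 and of il17rb, as log2(CPM + 10), had Pearson r = 0.61 and Spearman rho = 0.61 (2-sided permutation tests, adjusted over 6 relations, p = 0.0078 and 0.0050). Without Benthochromis horii and Neolamprologus brichardi r was 0.56. Without Lepidiolamprologus elongatus, Benthochromis horii and Shuja horei the same tests gave r = 0.47 (adjusted p = 0.043) and rho = 0.46. That rho did not pass (adjusted p = 0.062). Over all barcodes r was 0.52 (adjusted p = 0.019) and rho 0.58 (adjusted p = 0.0059), and r was 0.74 without Benthochromis horii and Shuja horei. The share of lck-positive barcodes was related to the overall level of il17rb (r = 0.61, adjusted p = 0.0079, rho = 0.46, adjusted p = 0.030). Without Lepidiolamprologus elongatus, Benthochromis horii and Shuja horei that rho was 0.42 and did not pass (adjusted p = 0.085). For gata3 over all 25 libraries, the rank relation with that share passed (rho = 0.61, adjusted p = 0.0050) and Pearson's r did not (0.41, adjusted p = 0.061). Median UMIs per barcode showed no relation that passed with either gene in the lck class (r = -0.26, adjusted p = 0.25 for gata3 and r = 0.02, adjusted p = 0.91 for il17rb). Species are related to each other to different degrees, which the tests do not take into account, and each pair of values comes from the same library.

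**Figure D5:**
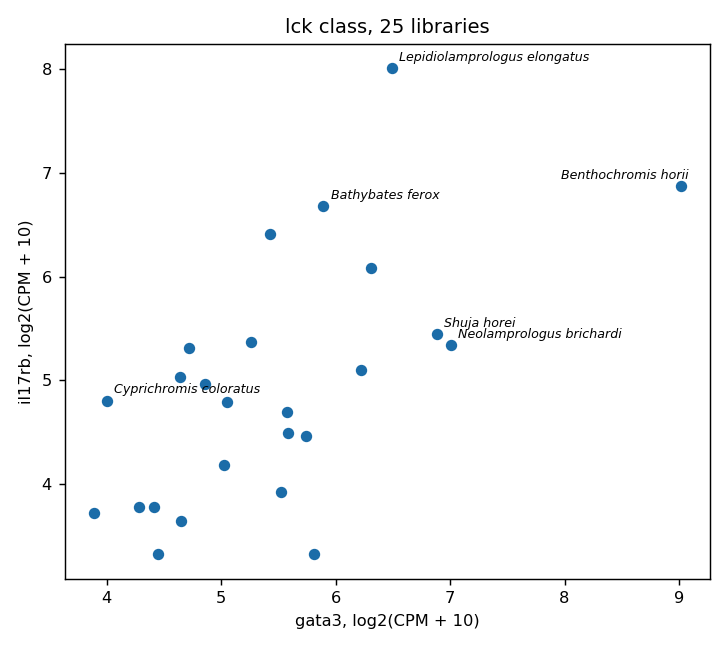
Level of il17rb against level of gata3 in the lck class of each of the 25 libraries, as log2(CPM + 10). Points are libraries, and r is 0.61; Benthochromis horii lies farthest right and Lepidiolamprologus elongatus highest.

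Over the 74 sums of the lck, csf1r and mogat2 classes in the libraries, patterns much like that of gata3 were those of cd3e (r = 0.85), znf536 (0.84), slc4a11 (0.82) and skap1 (0.81), of 3973 features with a mean of at least 10 CPM, and il17rb came 29th (0.77). The pattern of il17rb was most like gata3 (0.77), il17re (0.74), sytl3 (0.73), slc4a11 (0.72) and plek (0.72). These values mostly follow the difference between classes. Over the 25 lck sums alone, r with gata3 was 0.62 for cd3e and 0.61 for il17rb, and r with il17rb was 0.44 for il17re and 0.70 for plek.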

How the data were processed

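Libraries were made with the 10x Chromium 3' chemistry and processed with Cell Ranger 5.0.0, per the file headers. The deposited matrices hold UMI counts, not normalized. The reference genome and annotation are not given in the sources used here. Feature names were used as listed, and 30456 of 42622 are LOC identifiers, so genes on the lists may be present under such names. All deposited per-sample columns were used (0 left out).

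Barcodes with at least 500 UMIs and 250 features were kept. Doublets were removed by a simulated-doublet score (2000 variable features, 30 principal components), at an assumed 0.8% per 1000 barcodes, which took 3567 of 101710. Classes hold barcodes with at least 1 UMI of exactly 1 of lck, csf1r and mogat2.

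UMIs were summed per library and group of at least 10 barcodes and tested with edgeR 4.0.16 (R 4.3.3), with filterByExpr, TMM, library as a block, the quasi-likelihood test and Benjamini-Hochberg adjustment over all features at 0.05. DESeq2 1.42.0 was an alternative. Refits without 1 library kept the dispersion trend and the features of the full fit. Shares were compared after thinning to 1000 UMIs, with sign-flip permutation over libraries (100000 resamples, exact below 10 libraries). On simulated data the edgeR step recovered 68.1% of genes changed by a log2 of 1 and 100% of those changed by 2 in the gata3 comparison of lck barcodes (3332 genes), and 28.2% and 100% in that of il17rb (4204 genes). False calls were 7.33% of all calls in the first and 4.5% in the second. The simulated counts had the same dispersion for every gene, unlike real sums, so these rates hold for that setting only.

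The members and gene lists were chosen with earlier results of these data known. Named genes are the 10 higher and 5 lower features with a symbol and the smallest p, every matched gene of the gata, interleukin 17 receptor and type 2 lists, and the 5 most alike in pattern; 2 that the rule named are not reported here. The p-values measure spread between libraries, which are 1 per species and share ancestry.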

Additional observations from a re-analysis of the deposited data

How the results depend on the processing

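No paired analysis by replicate number was possible because the labels give none that groups share. Comparisons were paired within library instead, by a library block in every fit of summed counts and by within-library differences of shares. The differences of both genes between lck and mogat2 and between lck and csf1r, and their overlap, kept direction and call under every alternative that gave a value, with log2 ranges of 4.87 to 5.84 (gata3) and 3.88 to 4.79 (il17rb) against mogat2 and 3.80 to 4.95 and 2.98 to 3.91 against csf1r. The gene il17rb did not pass the filter on low counts in some class fits, which gave 31 values where gata3 had 34. For il17rb with gata3 in the lck class the range was 3.52 to 4.31, and for gata3 with il17rb it was 2.38 to 3.14. Fits of marker-free barcodes were not repeated with libraries left out one at a time.

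Between csf1r and mogat2 gata3 was called without Lepidiolamprologus elongatus, Benthochromis horii and Shuja horei (log2 1.39), with no TMM (1.65), with doublets kept (1.33) and in all barcodes with the marker (1.07). With 1 library left out it ran from 0.52 to 1.15, and was called without Boulengerochromis microlepis, Benthochromis horii or Shuja horei. There il17rb was called with no TMM (1.57) and in all barcodes with the marker (0.90), and ran from 0.50 to 0.99 with 1 library left out. The thinned gata3 share difference between these classes was 0.283 percentage points without the 3 species (adjusted p = 0.0256), -0.036 at 500 UMIs, and 0.138 to 0.250 with 1 library left out. That of il17rb was -0.0037 with at least 2 marker UMIs and 0.012 to 0.166 with 1 library left out. The r of lck share and gata3 passed at 0.447 (at least 1000 UMIs), 0.426 (doublets kept), 0.440 (log2(CPM + 1)) and 0.616 (without the 3 species).

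Counts of called genes moved most without the filter on low counts, to 1788 (gata3, lck class), 709 (il17rb, lck class), 7618 (gata3, no marker), 6588 (il17rb, no marker) and 800 (both genes against gata3 alone), where 46 and 113, 14 and 16, 506 and 3124, 144 and 1917, and 48 and 15 were called higher and lower with it. Without the 3 species, which leaves fewer libraries, they were 71, 10 and 31 for the first, second and last. With at least 2 lck UMIs the gata3 count was 39, and DESeq2 called 101 in the last. With 1 library left out the counts ran from 114 to 166, 25 to 42 and 49 to 71.

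Values near 0 that changed sign, none of them called, were these on the log2 scale. With gata3 in lck barcodes, ets1 was -0.28 with no filter and bcl11b 0.23 with 2 lck UMIs. With il17rb in lck barcodes, socs3 was -0.13 without the 3 species, -0.58 with no filter, -0.032 with DESeq2, -0.075 at 1000 UMIs and -0.26 to 0.16 with 1 library left out. There il7r was 0.13 without the 3 species, rora 0.23 with 2 lck UMIs and ets1 -0.31 with no filter. The gene batf was 0.035 without the 3 species, 0.0018 with no TMM, 0.016 with DESeq2, 0.049 with 2 lck UMIs and -0.25 to 0.063 with 1 library left out. The gene id2 was -1.03 without the 3 species, -0.43 with no filter, -0.22 with DESeq2 and -0.42 to 0.40 with 1 library left out. The gene il17re was -0.51 with no filter, -0.025 with DESeq2, -0.0013 at 1000 UMIs and -0.10 to 0.26 with 1 library left out. In marker-free barcodes il7r was -0.16 with no filter for gata3. For il17rb, with no TMM rora was 0.17, ets1 0.15 and gata6 0.15; with no filter batf was -0.061, id2 -0.13 and il17re -0.18, and il17re was -0.13 without the 3 species. The cause of these changes was not tested.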

Other observations

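In single species, barcodes with no marker that held gata3 or il17rb differed in some other lymphocyte or tuft cell genes from those without it. These species and genes were chosen after their values were seen, each rests on 1 library, and no test was made. Other species did not all go the same way, and counts over the species with at least 20 positive marker-free barcodes are given below. In Cyprichromis coloratus, where gata3 was lowest, 79.5% of 127 il17rb-positive barcodes held cd247, which encodes a T cell receptor signalling chain also found in natural killer cells, against 19.7% of 2164 il17rb-negative barcodes. The surface receptor gene crtam was in 63.8% of the il17rb-positive and 11.8% of the il17rb-negative barcodes, while cd3e was in 2.36% and 3.19%. That 3.19% was the lowest cd3e share in il17rb-negative marker-free barcodes of the 25 libraries, whose median was 10.9%. Other lymphocyte genes went both ways. The genes cd2 (6.30% and 10.1%) and il7r (4.72% and 11.5%) were less frequent in il17rb-positive barcodes, and tcf7 (26.0% and 9.66%) and rora (18.1% and 9.06%) more frequent. The median depth was 2593 and 2018.5 UMIs.

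In Benthochromis horii, the lymphocyte repressor gene zbtb32 was in 43.9% of 415 gata3-positive and 4.40% of 3181 gata3-negative barcodes, and the cytokine gene il10 in 25.1% and 3.71%. In Shuja horei zbtb32 was in 24.6% of 382 gata3-positive and 7.22% of 4502 gata3-negative barcodes, and il10 in 23.0% and 8.26%. In Lepidiolamprologus elongatus zbtb32 was in 36.3% of 303 il17rb-positive and 6.84% of 2222 il17rb-negative barcodes, while il10 was in 1.32% and 2.25%. In Benthochromis horii zbtb32 was in 8.86% of il17rb-positive and 8.96% of il17rb-negative barcodes, and in Bathybates ferox in 6.25% of gata3-positive and 11.8% of gata3-negative ones. With gata3, zbtb32 was the more frequent in positive barcodes in 19 of 21 species and il10 in 7 of 21. With il17rb, zbtb32 was so in 10 of 16 species, il10 in 7, cd247 in 14, crtam in 11 and cd3e in 8.

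In Eretmodus cyanostictus the tuft cell genes trpm5 and pou2f3 were in 10.8% and 6.15% of 65 il17rb-positive barcodes, against 0.074% and 0.26% of 2713 il17rb-negative barcodes, at median depths of 4024 and 1702 UMIs. The reverse was found in Benthochromis horii, where trpm5 was in 3.80% of il17rb-positive and 13.1% of il17rb-negative barcodes, and in Cyprichromis coloratus, with 0% of il17rb-positive and 4.76% of il17rb-negative barcodes. Over 16 species trpm5 was the more frequent in il17rb-positive barcodes in 5, and pou2f3 in 10. In the 22 libraries with at least 10 il17rb-positive marker-free barcodes, trpm5 was in 0% to 31.0% of them (median 0%). The range of pou2f3 was 0% to 28.6% (median 1.04%), so Eretmodus cyanostictus was not the highest for either gene. The epithelial gene epcam was in 6.30% to 95.2% of the same barcodes (median 25.5%). In il17rb-negative barcodes its range was 12.2% to 57.1% (median 32.1%).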
